A study of Mus musculus with 23 samples.

Results

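The genes described are 10 that carry glucose into the cell and break it down to lactate: Slc2a1, Hk1, Hk2, Pfkl, Pfkp, Aldoa, Pgk1, Eno1, Pkm and Ldha. They were chosen by name, all 10 were found among the 54347 gene identifiers of the count table, and all 10 passed the filter on low counts in each comparison. The study sorted cells of the labial cervical loop, the epithelial niche at the growing end of the continuously growing mouse incisor, by fluorescence of a Sox2-GFP reporter read from the gene's own promoter. The mice were at P2, and the tissue came from the lower incisor. The 23 libraries form 4 groups. Batch A holds 6 libraries of Sox2-negative and 6 of Sox2-positive cells, and batch B holds 4 of Sox2-negative and 7 of Sox2-positive cells. The Sox2-positive cells are called dental epithelial stem cells (DESC) in the labels, the Sox2-negative cells are whatever else the dissected tissue released, and all groups come from the same reporter line with no treatment. The batches were made on different days from different mice, so day and animals cannot be told apart. The labels do not say which libraries of a batch come from separate animals, so that p-values measure the spread between these libraries, which may be technical.

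Glycolysis turns glucose into pyruvate in the cytosol with a small net gain of ATP, and lactate dehydrogenase can then reduce pyruvate to lactate and return the NAD+ that the pathway needs. Several steps are served by isozymes, related enzymes from different genes that differ in regulation and tissue use. Proliferating and progenitor cells are known for high glycolytic activity, and many of these genes are textbook targets of the hypoxia-inducible factor Hif1a and of Myc. The transcript level of an enzyme gene is not a measure of flux through the step.

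Levels are given as CPM, the usual unit of counts relative to library size, with sizes corrected by TMM for differences in library composition. Total counts per library ran from 2305588 to 9541800. Sox2 itself lay at 0 to 0.247 CPM in the Sox2-negative and 2.60 to 13.1 CPM in the Sox2-positive libraries of batch A, and at 0 to 1.13 and 13.1 to 21.5 CPM in batch B, so that it separated the populations as labelled in each batch. The 10 epithelial markers summed to 3817 to 6353 CPM in the Sox2-positive and 164 to 410 CPM in the Sox2-negative libraries, and all 10 were called higher in Sox2-positive cells. The 10 mesenchymal markers summed to 10929 to 14317 CPM in the Sox2-negative and 706 to 1960 CPM in the Sox2-positive libraries, where Twist1 was at 0 throughout. Leukocyte markers summed to 3238 to 3727 CPM in Sox2-negative cells of batch A, 663 to 760.4 CPM in those of batch B and at most 14.2 CPM in Sox2-positive cells. Erythroid markers summed to 960 to 1151 CPM in Sox2-negative cells of batch A, 52539 to 59147 CPM in those of batch B and at most 12.2 CPM in Sox2-positive cells. The Sox2-positive cells also differed between batches: 8 Schwann and glial markers summed to 1061 to 1352 CPM in batch A and 55.2 to 87.9 CPM in batch B, 7 ameloblast markers to 296 to 359 CPM in batch A and 9.77 to 18.2 CPM in batch B, and 8 muscle markers to 1.84 to 20.6 CPM in batch A and 237 to 393 CPM in batch B. In Sox2-negative cells the Schwann and glial markers summed to 7.04 to 30.7 CPM in batch A and 17.9 to 25.9 CPM in batch B. The ameloblast markers summed higher in Sox2-negative cells, to 705 to 915 CPM in batch A and 569 to 703 CPM in batch B. The muscle markers summed to at most 15.2 CPM in Sox2-negative cells of batch A and 7.44 CPM in those of batch B. These lists move with the comparisons below, and their part in the results was not tested. The libraries numbered 1 and 2 of batch B stood apart from the others of their groups in many genes, so results that rest on them are also given without them. Such fits keep 2 Sox2-negative and 5 Sox2-positive libraries of batch B, and calls lost in them may also reflect fewer libraries.

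The 10 genes together took 0.223% ± 0.0162 (SD, n = 6) of all counts in Sox2-negative and 0.695% ± 0.0192 (SD, n = 6) in Sox2-positive cells of batch A. In batch B the shares were 0.203% ± 0.0281 (SD, n = 4) and 0.450% ± 0.0644 (SD, n = 7). Over both batches, 8 of the 10 genes were called higher in Sox2-positive cells, at an adjusted p under 0.05 in edgeR's quasi-likelihood test. Of all 17190 genes tested, 57.5% were called in that comparison, 24.9% higher and 32.5% lower. The genes called were Slc2a1, Pfkl, Pfkp, Aldoa, Pgk1, Eno1, Pkm and Ldha, and those not called were both hexokinase genes, Hk1 and Hk2. The log2 fold changes of these, 0.02 (standard error 0.20) and 0.15 (standard error 0.27), were smaller than their standard errors. Both genes were above 0 in batch A and below 0 in batch B. The median log2 fold change of the 10 was 1.31, beside -0.12 over all genes tested. Within batch A the same 8 were called higher and all 10 log2 fold changes were above 0, where 43.4% of all genes were called, 19.3% higher and 24.2% lower. Within batch B, 7 were called higher and Hk1 lower, where 54.7% of all genes were called, 27.1% higher and 27.6% lower. The 7 genes called higher in each batch (Slc2a1, Pfkl, Pfkp, Aldoa, Eno1, Pkm and Ldha) also had every Sox2-positive library above every Sox2-negative one in each batch, which held for 7.92% of all genes. In bulk samples, fewer cells of a type and less RNA per cell cannot be told apart.

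**Figure D1:**
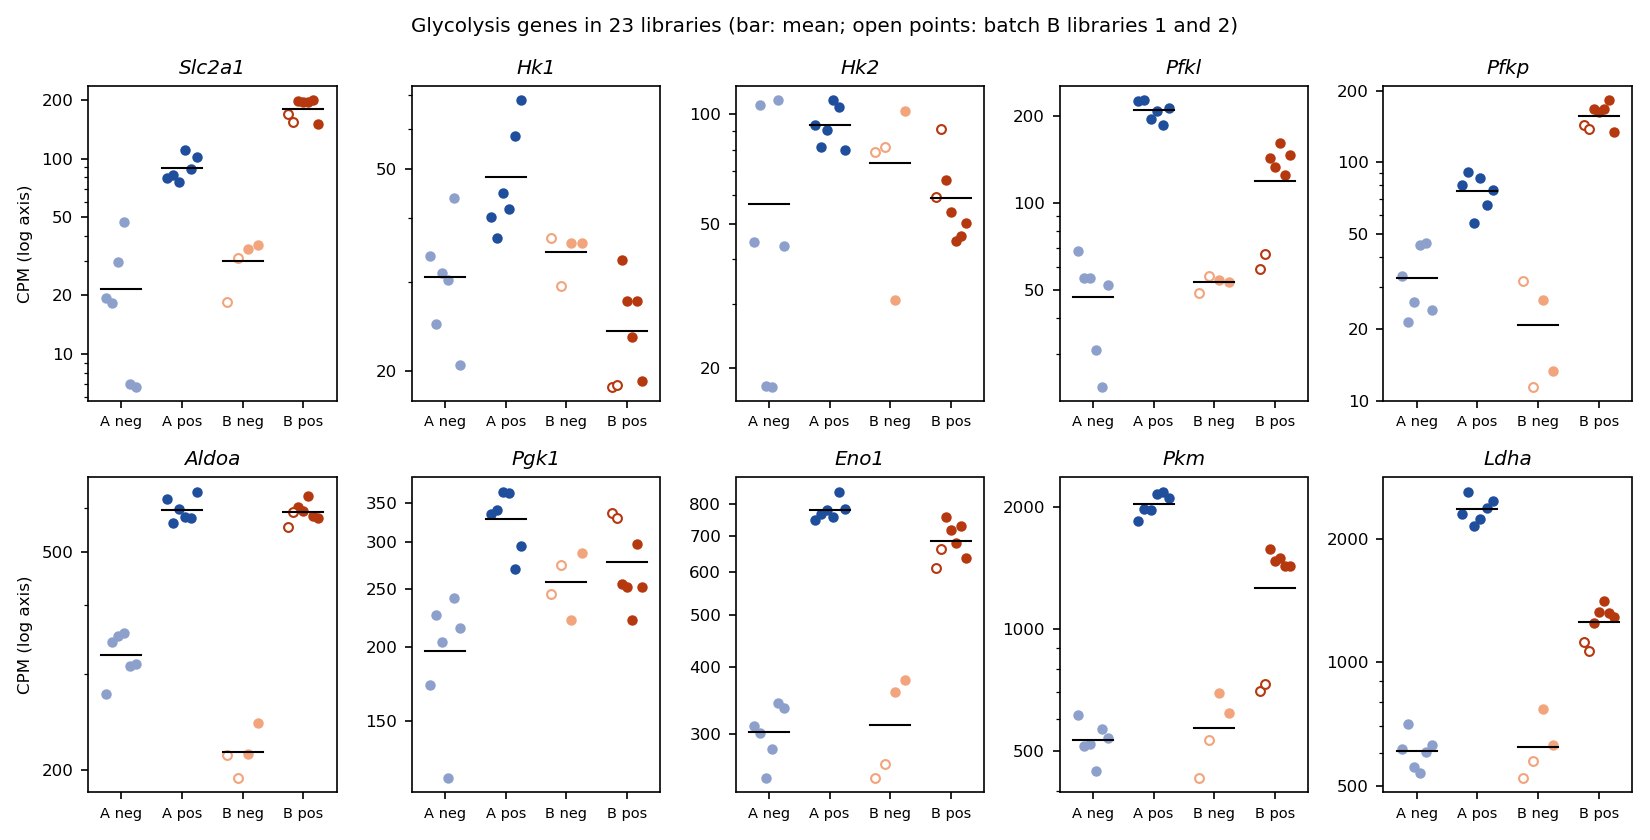
Level of each of the 10 genes in CPM on log axes (axis ranges differ between panels), 1 point per library, in Sox2-negative (neg) and Sox2-positive (pos) cells of batches A and B, with a bar at each group mean and open points for libraries 1 and 2 of batch B. Pkm in Sox2-positive cells of batch B splits into 705 and 733 CPM in the open points and 1431 to 1577 CPM in the rest, while Aldoa lies at 556 to 643 CPM in all Sox2-positive libraries.

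**Figure D2:**
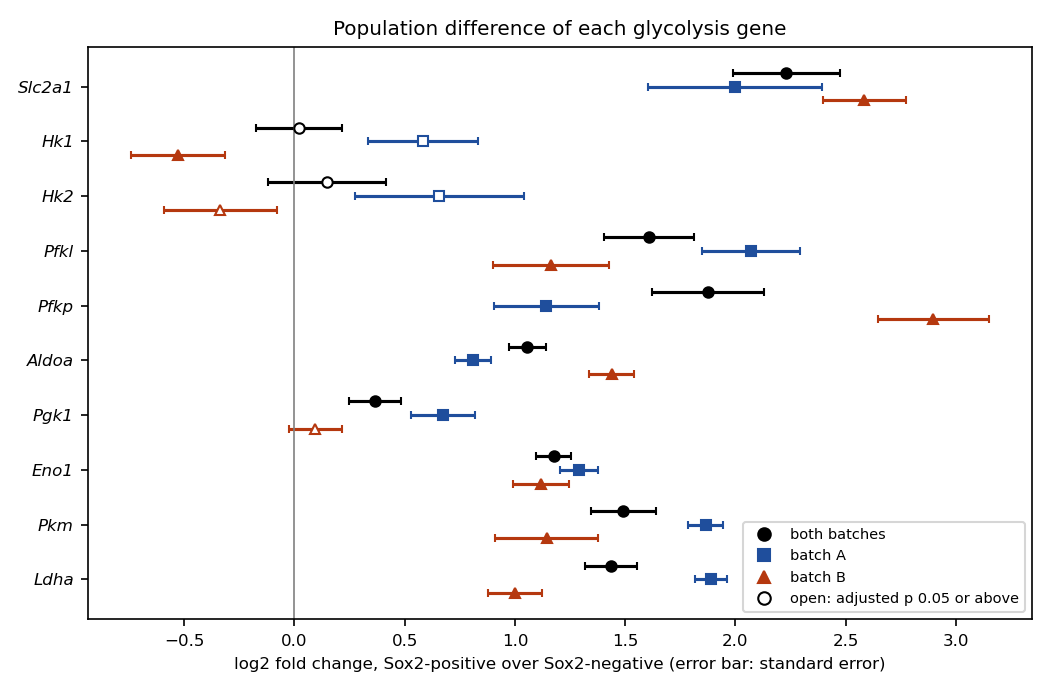
Log2 fold change of each gene, Sox2-positive over Sox2-negative cells, over both batches (circles), in batch A (squares) and in batch B (triangles), with standard errors. Filled points have an adjusted p under 0.05, and the points of Hk1 and Hk2 lie to the right of 0 in batch A and to the left in batch B.

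The stretch before each gene's start was searched for short motifs because most of the 10 genes were called in 1 direction and because Hif1a and Myc are known to bind such motifs. RefSeq (GRCm38.p6) held windows for all 10 genes, 17 in all, and the 200 bases before each annotated start were read. The motif ACGTG, the core of many hypoxia response elements, occurred on either strand in 6 of the 17 windows (35.3%) and in 14.0% of all 32851 windows. Those 6 windows belong to Slc2a1, Hk2, Aldoa, Pgk1, Pkm and Ldha. Pfkl, Pfkp and Eno1, which were called higher over both batches, held no match in any window, nor did Hk1, which was not called. The related GCGTG occurred in 7 of the 17 (41.2%), which belong to 6 genes, and in 24.7% of all windows. Windows of the same gene can overlap, as they do for Eno1, and a match in the overlap counts in each. The E-box CACGTG, which contains ACGTG on both strands, occurred in 1 of the 17 (5.88%) and in 5.26% of all. The median GC content was 66% in the 17 windows and 53% in all windows, and its part in these shares was not tested. The windows printed are those of Ldha, which held 5 matches counted over both strands, of Pgk1 and Aldoa, which also held matches and were called, of Hk2, which held a match and was not called over both batches, and of Hk1, which held none. Capitals mark ACGTG, its reverse complement CACGT, or both where they overlap as CACGTG. They lie before an annotated start: Ldha at chr7:46845604-46845803 (plus strand), Pgk1 at chrX:106186900-106187099 (plus), Aldoa at chr7:126799255-126799454 (minus), Hk2 at chr6:82774455-82774654 (minus) and Hk1 at chr10:62379909-62380108 (minus), all printed 5′ to 3′ and free of annotated exons of their own gene. A match is a description of the letters and does not show binding.
Ldha: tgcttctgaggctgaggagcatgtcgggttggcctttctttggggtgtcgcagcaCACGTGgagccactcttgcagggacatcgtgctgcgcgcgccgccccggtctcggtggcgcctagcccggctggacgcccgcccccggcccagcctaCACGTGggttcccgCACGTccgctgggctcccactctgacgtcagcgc
Pgk1: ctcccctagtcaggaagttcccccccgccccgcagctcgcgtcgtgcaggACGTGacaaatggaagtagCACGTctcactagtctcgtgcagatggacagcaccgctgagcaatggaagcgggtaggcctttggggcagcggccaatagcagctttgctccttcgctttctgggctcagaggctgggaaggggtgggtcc
Aldoa: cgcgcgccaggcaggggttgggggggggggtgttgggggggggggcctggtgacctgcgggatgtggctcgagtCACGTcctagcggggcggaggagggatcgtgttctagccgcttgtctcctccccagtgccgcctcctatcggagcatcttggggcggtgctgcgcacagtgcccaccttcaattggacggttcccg
Hk2: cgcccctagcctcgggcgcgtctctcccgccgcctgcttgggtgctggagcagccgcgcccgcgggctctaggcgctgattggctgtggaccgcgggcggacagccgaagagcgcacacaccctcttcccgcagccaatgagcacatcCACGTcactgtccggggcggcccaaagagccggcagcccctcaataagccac
Hk1: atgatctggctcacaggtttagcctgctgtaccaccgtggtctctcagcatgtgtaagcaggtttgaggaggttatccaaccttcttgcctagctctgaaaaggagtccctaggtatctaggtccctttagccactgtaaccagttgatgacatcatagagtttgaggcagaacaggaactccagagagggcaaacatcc

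Slc2a1 (ENSMUSG00000028645.11, mm10 chromosome 4, 119108711 to 119137983) encodes the glucose transporter GLUT1, which brings glucose into the cell. In batch A its level was 6.78 at the lowest, 18.8 at the median and 47.3 CPM at the highest of 6 Sox2-negative libraries, and 76.2, 85.6 and 110.1 CPM in the 6 Sox2-positive ones. In batch B the 4 Sox2-negative libraries held 18.4, 30.8, 34.6 and 36.0 CPM, and the 7 Sox2-positive ones 151 at the lowest, 195 at the median and 199 CPM at the highest. The populations did not overlap in either batch, and Sox2-positive cells of batch B lay above those of batch A without overlap. Slc2a1 had the highest log2 fold change of the 10 genes over both batches, 2.23 with a standard error (SE) of 0.24, or 4.70-fold (edgeR, adjusted p = 1.41e-08). It was 3.99-fold higher in batch A (log2 2.00, SE 0.40, edgeR adjusted p = 0.000717) and 6.00-fold higher in batch B (log2 2.58, SE 0.19, edgeR adjusted p = 1.01e-08). The difference between those folds was a log2 of 0.52 with an SE of 0.44, which did not pass the test (edgeR, adjusted p = 0.575). Counts of Slc2a1 per count of Slc2a3, which encodes the transporter GLUT3, averaged 1.33 ± 1.22 (SD, n = 6) in Sox2-negative and 11.1 ± 8.76 (SD, n = 6) in Sox2-positive cells of batch A. In batch B the same ratio averaged 1.86 ± 1.04 (SD, n = 4) and 15.9 ± 1.98 (SD, n = 7).

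Hk1 and Hk2 encode hexokinases, which trap glucose in the cell by phosphorylating it. Hk1 (ENSMUSG00000037012.18, chromosome 10, 62268855 to 62379908) is the widely expressed form and Hk2 (ENSMUSG00000000628.10, chromosome 6, 82725025 to 82774454) the form that insulin and hypoxia are known to induce. In batch A, Hk1 ran from 20.6 over a median of 30.7 to 43.8 CPM in Sox2-negative and from 36.6 over 43.3 to 68.4 CPM in Sox2-positive cells. In batch B its 4 Sox2-negative libraries held 36.5, 29.5, 35.7 and 35.8 CPM, and its Sox2-positive ones ran from 18.6 over 23.4 to 33.2 CPM. The populations overlapped in both batches, and the Sox2-positive mean was the higher in batch A and the lower in batch B. Hk1 was the 1 gene called lower in Sox2-positive cells, in batch B, by 1.44-fold (log2 -0.53, SE 0.21, edgeR adjusted p = 0.0464). That call was lost without batch B libraries 1 and 2 (edgeR, adjusted p = 0.173), with limma-voom, with total-count scaling, with no filter on low counts, and in 8 of the 11 fits that left out a single library of batch B. In batch A the log2 fold change was 0.58 with an SE of 0.25 and was not called (edgeR, adjusted p = 0.0694), although DESeq2 and total-count scaling called it. The difference between the batches in this value, -1.18 with an SE of 0.32, passed the test (edgeR, adjusted p = 0.0238) but not without batch B libraries 1 and 2, where the value was -1.08 with an SE of 0.39 (edgeR, adjusted p = 0.174). That difference also failed the test in 3 of the 23 fits that left out a single library.

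Hk2 varied widely between libraries of a group. Its 6 Sox2-negative libraries of batch A ran from 17.8 over a median of 44.1 to 109 CPM, and the Sox2-positive ones from 80.0 over 91.9 to 109 CPM, so that the populations overlapped. They also overlapped in batch B, where the Sox2-negative libraries held 78.8, 81.2, 30.8 and 102 CPM and the Sox2-positive ones ran from 45.0 over 53.7 to 90.9 CPM. Hk2 passed the test in none of the 6 comparisons, and its log2 fold change over both batches was 0.15 with an SE of 0.27 (edgeR, adjusted p = 0.657). Such an SE leaves room for a moderate difference in either direction. In batch B, Hk2 was called lower in 1 of the 11 fits that left out a single library. Hk2 counts per Hk1 count averaged 1.90 ± 1.41 (SD, n = 6) and 2.02 ± 0.50 (SD, n = 6) in Sox2-negative and Sox2-positive cells of batch A, and 2.16 ± 0.92 (SD, n = 4) and 2.60 ± 1.11 (SD, n = 7) in batch B, with overlapping ranges throughout.

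Pfkl and Pfkp encode the liver and platelet forms of phosphofructokinase, which commits sugar phosphate to glycolysis and is the main point of control of the pathway. Pfkl (ENSMUSG00000020277.10, chromosome 10, 77986947 to 78010083) ran from 23.1 over a median of 53.3 to 68.3 CPM in Sox2-negative and from 186 over 210.2 to 227 CPM in Sox2-positive cells of batch A. In batch B its 4 Sox2-negative libraries held 48.8, 55.8, 54.3 and 53.3 CPM, and the Sox2-positive ones ran from 58.9 over 133 to 162 CPM. The populations did not overlap in either batch, but Sox2-positive libraries 1 and 2 of batch B, at 58.9 and 66.3 CPM, lay close above the Sox2-negative ones, while the other 5 held 125 to 162 CPM. Pfkl was 3.05-fold higher in Sox2-positive cells over both batches (log2 1.61, SE 0.20, edgeR adjusted p = 1.86e-07), 4.20-fold in batch A and 2.24-fold in batch B. The difference between the batch folds, a log2 of -0.97 with an SE of 0.35, did not pass the test (edgeR, adjusted p = 0.0923). Within batch B, the mean of Sox2-positive over Sox2-negative libraries was 1.20 for libraries 1 and 2 and 2.64 for the rest.

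Pfkp (ENSMUSG00000021196.14, chromosome 13, 6579768 to 6648777) behaved otherwise across batches. Its level ran from 21.4 over a median of 29.6 to 46.0 CPM in Sox2-negative and from 55.5 over 78.2 to 91.1 CPM in Sox2-positive cells of batch A. The Sox2-negative libraries of batch B held 31.6, 11.4, 26.3 and 13.3 CPM, and the Sox2-positive ones ran from 134 over 162 to 182 CPM. No library of one population reached the other in either batch, and the Sox2-positive cells of batch B lay wholly above those of batch A. Pfkp was 2.21-fold higher in Sox2-positive cells in batch A (log2 1.14, SE 0.24, edgeR adjusted p = 0.00113) and 7.46-fold higher in batch B (log2 2.90, SE 0.25, edgeR adjusted p = 9.80e-08). The difference of 1.69 on the log2 scale with an SE of 0.34 passed the test (edgeR, adjusted p = 0.00188).

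Counted against each other within a library, the phosphofructokinase genes differed in order between Sox2-positive cells of the batches. Pfkl had more counts than Pfkp in all 6 Sox2-positive libraries of batch A, and Pfkp had more than Pfkl in 6 of the 7 of batch B. With Pfkm, the muscle form, counted in, Pfkl made up 63.0% ± 3.41 (SD, n = 6) of the phosphofructokinase counts in Sox2-positive cells of batch A and Pfkp 22.7% ± 2.05 (SD, n = 6). In Sox2-positive cells of batch B, Pfkl made up 35.9% ± 7.92 (SD, n = 7) and Pfkp 49.1% ± 6.53 (SD, n = 7). Pfkp counts per Pfkl count ranged from 0.284 to 0.414 in the former group and from 0.912 to 2.44 in the latter, without overlap. The top of the latter range came from libraries 1 and 2, at 2.44 and 2.07, and the other 5 ran from 0.912 to 1.45. The Sox2-negative ranges were 0.392 to 1.98 in batch A and 0.204 to 0.648 in batch B. These ratios of counts also carry the difference in transcript length between the genes.

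Aldoa (ENSMUSG00000030695.16, chromosome 7, 126795234 to 126800751) encodes aldolase A, which splits the doubly phosphorylated sugar into triose phosphates. In batch A it ran from 276 over a median of 327 to 356 CPM in Sox2-negative and from 563 over 588 to 643 CPM in Sox2-positive cells. In batch B the Sox2-negative libraries held 214, 194, 214 and 243 CPM, and the Sox2-positive ones ran from 556 over 589 to 633 CPM. The 13 Sox2-positive libraries fell in 1 narrow range, and the Sox2-negative libraries of batch B all lay below those of batch A. Aldoa was 1.75-fold higher in Sox2-positive cells in batch A (log2 0.81, SE 0.08, edgeR adjusted p = 9.74e-07) and 2.71-fold higher in batch B (log2 1.44, SE 0.10, edgeR adjusted p = 6.34e-09). The difference of 0.57 on the log2 scale with an SE of 0.12 passed the test (edgeR, adjusted p = 0.00275). A second identifier with the same symbol, at most 5.03 CPM, was not used.

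Pgk1 (ENSMUSG00000062070.12, X chromosome, 106187100 to 106203699) encodes phosphoglycerate kinase, the first step of the pathway that yields ATP. In batch A it ran from 120.0 over a median of 209 to 242 CPM in Sox2-negative and from 271 over 337 to 365 CPM in Sox2-positive cells, without overlap. In batch B the Sox2-negative libraries held 245, 275, 222 and 288 CPM and the Sox2-positive ones ran from 222 over 255 to 336 CPM, so that the populations overlapped. The gene was 1.59-fold higher in Sox2-positive cells of batch A (log2 0.67, SE 0.15, edgeR adjusted p = 0.00146), and in batch B the log2 fold change was 0.09 with an SE of 0.12 (edgeR, adjusted p = 0.530). Without batch B libraries 1 and 2 the value in batch B was -0.01 with an SE of 0.13. The difference between batches, -0.64 with an SE of 0.20, passed the test narrowly (edgeR, adjusted p = 0.0446), but failed it under 6 of the alternatives and in 15 of the 23 fits that left out a single library. Its transcripts share 54.7% of their 31-base words with other annotated genes, foremost with the copy Pgk1-rs7, so that its count is uncertain where reads could be split.

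Eno1 (ENSMUSG00000063524.13, chromosome 4, 150236721 to 150248879) encodes the enolase of most tissues, which forms phosphoenolpyruvate. In batch A it ran from 249 over a median of 306 to 343 CPM in Sox2-negative and from 749 over 774 to 844 CPM in Sox2-positive cells. In batch B the Sox2-negative libraries held 249, 264, 359.8 and 378 CPM, and the Sox2-positive ones ran from 610 over 677 to 759 CPM. The populations lay far apart in both batches. Eno1 was 2.45-fold higher in Sox2-positive cells of batch A (log2 1.29, SE 0.09, edgeR adjusted p = 9.15e-09) and 2.17-fold higher in those of batch B (log2 1.12, SE 0.13, edgeR adjusted p = 1.95e-06). The difference of those values, -0.23 with an SE of 0.14, did not pass the test (edgeR, adjusted p = 0.382). Eno1 shares 27.7% of its 31-base transcript words with Eno1b, a close copy to which reads could be assigned. Eno1b counts per Eno1 count averaged 0.734 ± 0.098 (SD, n = 6) in Sox2-negative and 1.54 ± 0.150 (SD, n = 6) in Sox2-positive cells of batch A, and 0.386 ± 0.125 (SD, n = 4) and 0.959 ± 0.081 (SD, n = 7) in batch B. With both counts added, the fold was 3.60 in batch A (log2 1.85, SE 0.07, edgeR adjusted p = 8.54e-12) and 3.03 in batch B (log2 1.60, SE 0.16, edgeR adjusted p = 4.56e-07), so that the size for Eno1 alone depends on how reads were split.

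Pkm (ENSMUSG00000032294.17, chromosome 9, 59656368 to 59679375) encodes the muscle-type pyruvate kinase, whose splice forms PKM1 and PKM2 are not separated by these gene counts. In batch A it ran from 447 over a median of 531 to 614 CPM in Sox2-negative and from 1851 over 2047 to 2184 CPM in Sox2-positive cells. The Sox2-negative libraries of batch B held 430, 534, 697 and 623 CPM, and the Sox2-positive libraries 1 and 2 held 705 and 733 CPM while the other 5 held 1431 to 1577 CPM. The populations did not overlap, although Sox2-positive libraries 1 and 2 of batch B lay just above the highest Sox2-negative library of that batch. Pkm was 3.64-fold higher in Sox2-positive cells of batch A (log2 1.86, SE 0.08, edgeR adjusted p = 2.27e-11) and 2.21-fold higher in those of batch B (log2 1.14, SE 0.23, edgeR adjusted p = 0.000607). Without libraries 1 and 2 the fold in batch B was 2.23 with a log2 SE of 0.07. The difference between batches, -0.78 with an SE of 0.24, passed narrowly (edgeR, adjusted p = 0.0459). It did not pass with limma-voom (adjusted p = 0.284), RLE or total-count scaling, a filter at a mean of 10 counts, or in 15 of the 23 fits without a single library, and it passed clearly without batch B libraries 1 and 2 (-0.75, SE 0.11, edgeR adjusted p = 0.000357). Of its transcripts' 31-base words, 34.7% occur in other annotated genes, 17.9% in Gm6560 alone.

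Ldha (ENSMUSG00000063229.15, chromosome 7, 46841475 to 46855627) encodes the lactate dehydrogenase subunit that favours the step from pyruvate to lactate. In batch A it ran from 536 over a median of 610 to 707 CPM in Sox2-negative and from 2155 over 2344 to 2606 CPM in Sox2-positive cells. The Sox2-negative libraries of batch B held 522, 573, 768 and 629 CPM, and the Sox2-positive ones ran from 1064 over 1289 to 1409 CPM. The populations did not overlap in either batch, and all Sox2-positive libraries of batch B lay below those of batch A. Ldha was 3.70-fold higher in Sox2-positive cells of batch A (log2 1.89, SE 0.07, edgeR adjusted p = 7.54e-12) and 2.00-fold higher in those of batch B (log2 1.00, SE 0.12, edgeR adjusted p = 4.43e-06). The difference of -0.95 with an SE of 0.13 passed the test (edgeR, adjusted p = 2.39e-05) under each alternative tried and in each fit without a single library. Ldhb, the subunit that favours the reverse step, was 1.21-fold lower in Sox2-positive cells over both batches (log2 -0.28, SE 0.08, edgeR adjusted p = 0.00413). That call was lost without batch B libraries 1 and 2 (log2 -0.19, SE 0.09, edgeR adjusted p = 0.0792). Ldha counts per Ldhb count ranged from 2.09 to 2.93 in Sox2-negative and from 9.33 to 12.6 in Sox2-positive cells of batch A, and from 2.10 to 3.60 and 4.88 to 8.32 in those of batch B. The 2 populations did not overlap in this ratio in either batch, nor did the Sox2-positive cells of the 2 batches.

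**Figure D3:**
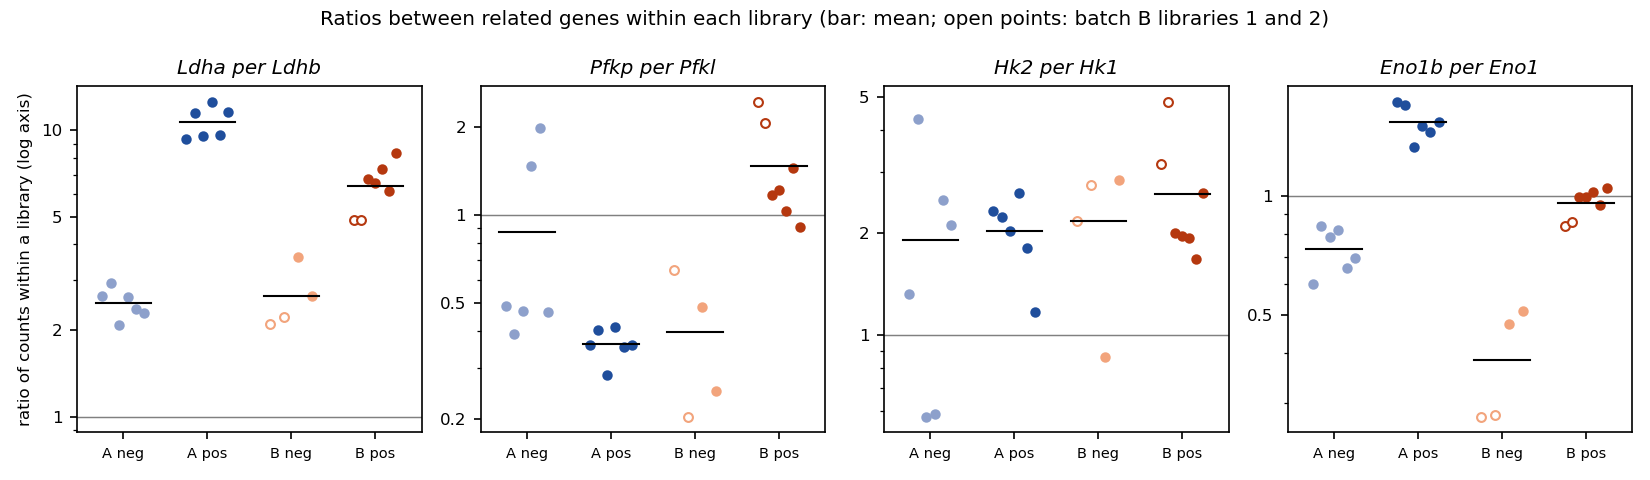
Counts of 1 gene per count of a related gene within each library, on log axes, in Sox2-negative (neg) and Sox2-positive (pos) cells of batches A and B, with a bar at each group mean and open points for libraries 1 and 2 of batch B. Ldha per Ldhb is 9.33 to 12.6 in Sox2-positive cells of batch A against at most 3.60 in any Sox2-negative library, while Hk2 per Hk1 overlaps between all groups.

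Compared with each other, the 10 genes kept a similar order of level in all 4 groups. Divided by the mean length of a gene's coding transcripts, Ldha stood first and Pkm second in every group, at 2405 and 1989 CPM per kilobase in Sox2-positive and 619 and 520.1 CPM per kilobase in Sox2-negative cells of batch A. In Sox2-positive cells of batch B they were at 1278 and 1232 CPM per kilobase, values that differ by less than the spread between libraries, and in Sox2-negative cells of that batch at 635 and 556. Eno1, Aldoa and Pgk1 followed in each group, and the transporter, hexokinase and phosphofructokinase genes held the 5 lowest ranks. The lowest was Hk1 in Sox2-positive cells of batch B, at 19.3 CPM per kilobase, Hk2 in those of batch A, at 31.7, and Pfkp in Sox2-negative cells of both batches, at 16.3 in batch A and 10.3 in batch B. The lowest rank depended on the length used. By undivided CPM, or per kilobase of the principal transcript, it went to Hk1 in Sox2-positive cells of both batches. In Sox2-negative cells it then went to Slc2a1 in batch A and to Pfkp in batch B. Whether the deposited counts had already been scaled for transcript length is not given in the sources used here, but Ldha and Pkm also held the first 2 ranks when undivided CPM were used, with Pkm first in Sox2-positive cells of batch B.

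In the test of whether the population difference itself changed between batches, 2 genes had a larger value in batch B (Pfkp and Aldoa) and 4 a smaller one (Hk1, Pgk1, Pkm and Ldha), where 7.04% of all genes were called, 2.82% and 4.22% in each direction. Between Sox2-positive cells of the batches, Slc2a1 and Pfkp were called higher in batch B and Hk1, Pfkl, Pkm and Ldha lower, where 10.4% of all genes were called, 4.85% higher and 5.54% lower. The libraries of the batches did not overlap in any of these 6 genes, and 3.86% of all genes had every batch B library higher and 4.37% every one lower. Between Sox2-negative cells, Aldoa alone was called, lower in batch B (log2 -0.60, SE 0.09, edgeR adjusted p = 5.36e-05), where 11.2% of all genes were called, 5.85% higher and 5.35% lower. Its libraries did not overlap between the batches either, as in 4.04% of all genes lower and 4.74% higher in batch B.

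In Sox2-positive cells, Slc2a1 was 1.99-fold higher (log2 0.99, SE 0.29, edgeR adjusted p = 0.0238) and Pfkp 2.04-fold higher in batch B (log2 1.03, SE 0.22, edgeR adjusted p = 0.00178). Ldha was 1.90-fold lower there (log2 -0.93, SE 0.09, edgeR adjusted p = 1.32e-08), Pkm 1.63-fold lower (log2 -0.70, SE 0.16, edgeR adjusted p = 0.00322), Pfkl 1.76-fold lower (log2 -0.82, SE 0.22, edgeR adjusted p = 0.0163) and Hk1 2.03-fold lower (log2 -1.02, SE 0.21, edgeR adjusted p = 0.00154). Without batch B libraries 1 and 2, Slc2a1 (log2 1.05, SE 0.32, edgeR adjusted p = 0.0520) and Pfkl (log2 -0.57, SE 0.19, edgeR adjusted p = 0.0942) were no longer called, and the other 4 were. The value for Slc2a1 was no smaller in that fit, and that for Pfkl was. Eno1 was not called between Sox2-positive cells of the batches (log2 -0.21, SE 0.09, edgeR adjusted p = 0.183), but Eno1 and Eno1b summed were, lower in batch B (log2 -0.57, SE 0.11, edgeR adjusted p = 0.000459). The batch differences cannot be told apart from the differences between days and mice, and the glial, ameloblast and muscle markers given above moved with them.

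**Figure D4:**
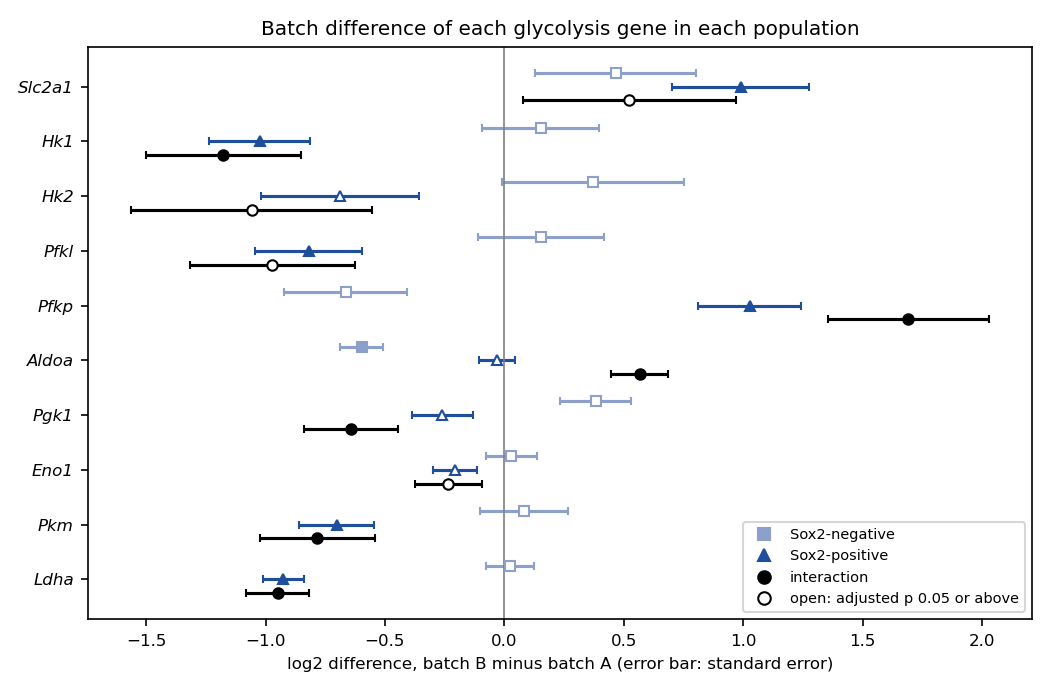
Log2 difference of each gene between batches, B minus A, in Sox2-negative cells (squares) and Sox2-positive cells (triangles), and the interaction, which is the second minus the first (circles), with standard errors. Filled points have an adjusted p under 0.05, and Pfkp at 1.69 and Hk1 at -1.18 mark the ends of the interaction values.

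Libraries 1 and 2 of batch B differed from the rest in part of these genes only. Among Sox2-positive libraries of that batch, libraries 1 and 2 lay below all others in Hk1, Pfkl, Pkm and Ldha and above all others in Pgk1, where 8.84% of all genes lay below and 15.6% above. Ldha was at 1064 and 1121 CPM in these and 1250 to 1409 CPM in the other 5. Pgk1 was at 329 and 336 CPM in these and 222 to 299 CPM in the other 5. Among Sox2-negative libraries they lay below the other 2 in Slc2a1, Aldoa, Eno1, Pkm and Ldha and above them in none, where 19.2% of all genes lay below and 21.3% above. These libraries were low in both populations for Pkm and Ldha. The mean of Sox2-positive over that of Sox2-negative libraries was 2.00 in libraries 1 and 2 and 1.89 in the rest for Ldha, and 1.49 and 2.25 for Pkm.

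Of 18 other genes of the pathway, 12 were tested over both batches: 4 were called higher in Sox2-positive cells, 3 lower and 5 neither, and their median on the log2 scale was 0.23, beside -0.12 over all genes. These counts lie near the background given above, where 57.5% of all genes were called, 24.9% higher and 32.5% lower. Tpi1, the triose phosphate isomerase gene, was 2.20-fold higher (log2 1.14, SE 0.11, edgeR adjusted p = 1.72e-09) and Aldoc, the brain-type aldolase gene, 4.36-fold higher (log2 2.13, SE 0.44, edgeR adjusted p = 0.000191), or 6.67-fold without batch B libraries 1 and 2. Gapdh, for the dehydrogenase step, was 1.35-fold higher (log2 0.43, SE 0.05, edgeR adjusted p = 4.98e-08), at 1153 ± 92.7 and 1576 ± 74.2 CPM (SD, n = 6 each) in Sox2-negative and Sox2-positive cells of batch A. Pgam1, for phosphoglycerate mutase, was higher in batch A (log2 0.84, SE 0.11, edgeR adjusted p = 1.54e-05) and not called in batch B (log2 -0.07, SE 0.09, edgeR adjusted p = 0.521), and the difference between batches passed the test (log2 -0.98, SE 0.14, edgeR adjusted p = 2.41e-05). Pgk1, for the step before it, was likewise called in batch A and not in batch B. Gpi1, for the isomerase between hexokinase and phosphofructokinase, was not called over both batches (log2 0.09, SE 0.13, edgeR adjusted p = 0.582). It was called higher in batch B (log2 0.53, SE 0.12, edgeR adjusted p = 0.00126) and not called in batch A (log2 -0.21, SE 0.17, edgeR adjusted p = 0.344). The difference between those values did not pass the test (log2 0.67, SE 0.22, edgeR adjusted p = 0.0629). Eno2, the neuronal enolase gene, was lower (log2 -1.58, SE 0.47, edgeR adjusted p = 0.00551), as was Hk3, the hexokinase gene of blood cells, which reached 16.6 CPM in Sox2-negative cells of batch A and was at 0 in all Sox2-positive libraries of that batch. Leukocyte markers, given above, were likewise highest in Sox2-negative cells of batch A. In those libraries Hk3 ran from 0 to 16.6 CPM, while the leukocyte markers summed to 3238 to 3727 CPM. The part of leukocytes in the Hk3 values was not tested.

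Of 11 listed genes for transport of glucose and lactate other than Slc2a1, 9 were tested, of which 4 were called higher and 1 lower, and the median on the log2 scale was -0.03. That is again near the 57.5% of all genes called. Slc16a3, for the lactate exporter MCT4, averaged 8.86 ± 7.15 and 106 ± 18.6 CPM (SD, n = 6 each) in Sox2-negative and Sox2-positive cells of batch A, and 26.7 ± 7.91 (SD, n = 4) and 39.3 ± 16.8 CPM (SD, n = 7) in batch B. Its log2 fold change was 3.50 in batch A (SE 0.42, edgeR adjusted p = 5.81e-06) and 0.55 in batch B (SE 0.36, edgeR adjusted p = 0.215), and the difference of -3.02 passed the test (SE 0.56, edgeR adjusted p = 0.000923). The value in batch B rests on libraries 1 and 2: these held 15.1 and 15.3 CPM in Sox2-positive cells, below all 4 Sox2-negative libraries at 16.3 to 35.5 CPM, and the other 5 held 45.9 to 55.7 CPM, above them. Without libraries 1 and 2, Slc16a3 was called higher in batch B as well (log2 1.18, SE 0.25, edgeR adjusted p = 0.00333), and the difference between batches was -2.37 (SE 0.57, edgeR adjusted p = 0.0224). Slc2a3 was lower in Sox2-positive cells (log2 -0.78, SE 0.30, edgeR adjusted p = 0.0285), opposite to Slc2a1, but was not called without batch B libraries 1 and 2 (log2 -0.67, SE 0.37, edgeR adjusted p = 0.132). Of 13 genes that bring pyruvate into mitochondria or control its oxidation, 8 were called higher and 2 lower, with a median of 0.68, beside the same background. They included Pdk1, a kinase that restrains pyruvate dehydrogenase, which was 3.06-fold higher (log2 1.62, SE 0.18, edgeR adjusted p = 2.27e-08), and Mpc2, a subunit of the mitochondrial pyruvate carrier, which was 2.80-fold lower (log2 -1.48, SE 0.10, edgeR adjusted p = 2.56e-12).

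**Figure D5:**
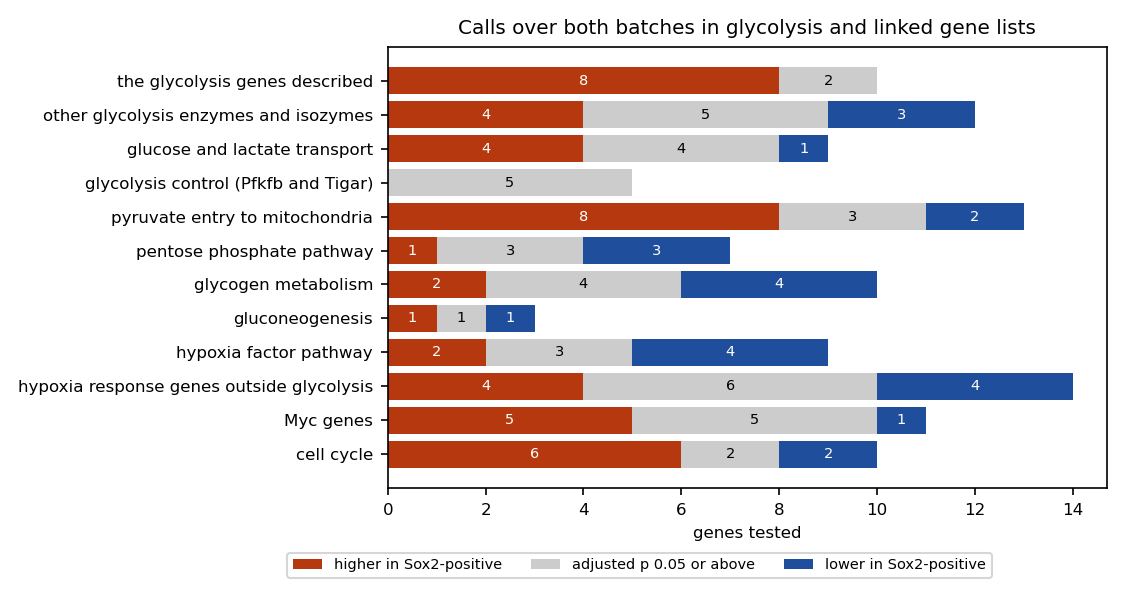
Number of genes tested over both batches in each list that were higher, lower or not called in Sox2-positive against Sox2-negative cells, at an adjusted p under 0.05 in edgeR. The 10 glycolysis genes described split into 8 higher and 2 not called, the other pathway genes into 4 higher, 3 lower and 5 not called.

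The genes most like each member across the 23 libraries were found by the root-mean-square difference in log2 CPM, each gene centred on its own mean, among 11008 genes outside the glycolysis lists. All share the same libraries and the same split into populations. Ldha was nearest to Mcm6, a replication helicase gene, with a difference of 0.231, and to Pkm among the 10 genes, with 0.233. Pkm was nearest to the chaperone gene Fkbp4 (0.230), Eno1 to the lysyl-tRNA synthetase gene Kars (0.174) and Pgk1 to the chromatin protein gene Hmgn1 (0.207). Pfkl was nearer to Pkm (0.313) than to any gene outside the lists, of which Hmga1 was the nearest (0.326). The nearest genes lay farther off for Slc2a1 (Ctf1, 0.523), Pfkp (Tgif1, 0.487) and Hk2 (Coq10a, 0.450), and Hk1 was at 0.325 from Sec61a1. Slc2a1, Pfkp and Hk2 also varied more about their own means, by 1.44, 1.16 and 0.732, against 0.483 for Hk1. The distances therefore do not rank closeness between genes that vary by different amounts. Hk1 and Pgk1 differed from their nearest member by more than they varied themselves: 0.553 between Hk1 and Pgk1 against 0.483 for Hk1 about its own mean, and 0.492 between Pgk1 and Eno1 against 0.333 for Pgk1.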

How the data were processed

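RNA was measured in 23 Smart-seq2 libraries. The authors deposited a table of estimated counts per gene, with values that are nearly never whole. FastQC, Trimmomatic, Salmon and mm10 are named in the submitters' processing notes, and their versions, settings and annotation are not given in the sources used here. Identifiers were matched to symbols with the version dropped (99.5% of 54347). Counts were rounded and tested with edgeR 4.0.16 (R 4.3.3): TMM scaling, filterByExpr at a count minimum of 10, quasi-likelihood test, Benjamini-Hochberg adjustment over all genes tested, called at an adjusted p under 0.05. Standard errors are the log2 fold change divided by the square root of F. Comparisons were the population difference over both batches with batch as a term, within each batch, the interaction, and the batch difference in each population. The fits were tested on simulated data. Alternatives were DESeq2 1.42.0, limma-voom 3.58.1 with quality weights, other scalings and filters, a replicate block and left-out libraries. A term for batch B libraries 1 and 2, Eno1 and Eno1b summed, and length taken from the principal transcript were added after the data were seen. The members and the gene lists were chosen with earlier results of these data known. Named were all 10 genes, their isozymes, Eno1b, the remaining pathway enzymes, and the highest and lowest called gene of each other list with a mean of at least 10 CPM. The result for 1 such gene is not reported here. Word sharing and positions use the GENCODE annotation of mm10.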

Additional observations from a re-analysis of the deposited data

Results flagged for a closer look

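Of the 40 sets of libraries examined (10 genes in 4 groups), 2 had a library set apart from the others of its group, where chance alone gives about 1 in 20. Hk1 was at 29.5 CPM in the lowest Sox2-negative library of batch B, and the other 3 held 35.7 to 36.5 CPM. Eno1 was at 844 CPM in the highest Sox2-positive library of batch A, and the other 5 held 749 to 785 CPM.

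For 6 genes the size of the population difference was not the same in each batch, by edgeR's test of the interaction on the log2 scale (batch B minus batch A). It was larger in batch B for Pfkp (1.69, adjusted p = 0.00188) and Aldoa (0.57, adjusted p = 0.00275). It was smaller in batch B for Ldha (-0.95, adjusted p = 2.39e-05), Hk1 (-1.18, adjusted p = 0.0238), Pgk1 (-0.64, adjusted p = 0.0446) and Pkm (-0.78, adjusted p = 0.0459). The last 3 lose the call under alternatives given with their values above.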

How the results depend on the processing

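The 8 genes called higher over both batches kept that call under each alternative and in each of the 23 fits without a single library. The single gene called lower in batch B, Hk1, went to 0 genes called with limma-voom, total-count scaling, no filter on low counts, without batch B libraries 1 and 2, and with the replicate block. Pgk1 in batch B was -0.0059 without libraries 1 and 2. Leaving those libraries out also moved the genes called from 1210 to 481 for the interaction, from 1924 to 754 between Sox2-negative cells and from 1785 to 1159 between Sox2-positive cells, and limma-voom moved the last to 3313. Interaction genes called lower among the 10 fell from 4 to 2 with RLE, total-count scaling, a filter at a mean of 10 counts, and without libraries 1 and 2. Between Sox2-negative cells, 1 was called higher with a term for libraries 1 and 2 (Pkm), and 2 were called lower with DESeq2 and total-count scaling (Aldoa and Pfkp). Between Sox2-positive cells, 1 in place of 2 was called higher without libraries 1 and 2, and 7 in place of 4 lower with limma-voom.

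Values near 0 changed sign. Between Sox2-negative cells of the batches, Eno1 was -0.015 with DESeq2, -0.014 with RLE, -0.081 with limma-voom, -0.12 with total-count scaling and -0.26 summed with Eno1b. Ldha was -0.020 with DESeq2 and RLE, -0.053 with limma-voom, -0.12 with total-count scaling and -0.0031 with the filter at a mean of 10. Pkm was -0.025 with limma-voom and -0.064 with total-count scaling, and Pfkl -0.0020 with total-count scaling. Aldoa between Sox2-positive cells was 0.0026 with the term for libraries 1 and 2. Total-count scaling moved the median of all genes over both batches from -0.12 to 0.0034 and between Sox2-negative cells from -0.0041 to -0.15. It moved the calls there from 1005 higher and 919 lower to 661 and 1388, and between Sox2-positive cells from 833 and 952 to 666 and 1214.

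Without a single library, the 10 genes called lower in batch B numbered 0 to 1, those called lower for the interaction 1 to 4, those called higher in batch A 8 to 9 and those called lower between Sox2-negative cells 1 to 2. Genes called ran from 938 to 1254 for the interaction and from 1331 to 1989 between Sox2-negative cells. Hk1 over both batches ran from -0.040 to 0.14. Between Sox2-negative cells Eno1 ran from -0.054 to 0.13, Pkm from -7.01e-05 to 0.21 and Ldha from -0.065 to 0.11.

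The labels do not say whether library numbers pair the populations. Same-numbered libraries deviated from their group means with correlations of -0.02 to 0.04 over 10 pairs. Of 10 Sox2-negative libraries, 1 correlated best with its own number. Libraries 1 and 2 of batch B, which stood apart in both populations, reached only 0.040 to 0.060 between populations. Values near 0 therefore cannot decide on pairing. With the replicate block, 8795 genes in place of 9879 were called over both batches, 5829 in place of 6209 in batch A and 6668 in place of 8623 in batch B. Total counts of 2305588 to 9541800 put 3 counts, the floor for a gene at 0, at 0.314 to 1.30 CPM, far below the levels of the 10 genes, so that depth limits low genes such as Hk3 and covers counting error only.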

Other observations

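Counts in the lists of regulators and linked pathways are to be read beside all genes tested over both batches, of which 57.5% were called, 24.9% higher and 32.5% lower in Sox2-positive cells, and most lie near that share. Of 9 genes of the hypoxia factor pathway, 2 were called higher and 4 lower in Sox2-positive cells over both batches, where Hif1a was 1.56-fold higher (log2 0.64, SE 0.17, edgeR adjusted p = 0.00262) and Epas1, its relative in endothelial and mesenchymal cells, much lower (log2 -4.87, SE 0.49, edgeR adjusted p = 3.22e-09). Hif1a was called in batch B (log2 1.13, SE 0.14, edgeR adjusted p = 4.40e-06) and not in batch A (log2 0.31, SE 0.25, edgeR adjusted p = 0.328). The difference between those values did not pass the test (log2 0.76, SE 0.31, edgeR adjusted p = 0.150). Endothelial markers moved with Epas1, at 863 to 1077 CPM in Sox2-negative cells of batch A, 212 to 261 CPM in those of batch B and at most 10.96 CPM in Sox2-positive cells, and their part was not tested. Of 14 hypoxia response genes outside glycolysis, 4 were called higher and 4 lower. The mitophagy gene Bnip3 was 6.99-fold higher (log2 2.81, SE 0.19, edgeR adjusted p = 1.21e-12) and the angiogenic factor gene Vegfa was lower (log2 -2.45, SE 0.26, edgeR adjusted p = 6.24e-09).

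Of 11 Myc family and partner genes, 5 were called higher and 1 lower, with Mycl 5.05-fold higher (log2 2.34, SE 0.36, edgeR adjusted p = 3.58e-06) and the repressor gene Mnt lower (log2 -1.33, SE 0.22, edgeR adjusted p = 8.73e-06). Of 10 cell cycle genes, 6 were called higher and 2 lower, from Ccnb1 at a log2 of 1.49 (SE 0.17, edgeR adjusted p = 2.64e-08) to Top2a at -0.63 (SE 0.14, edgeR adjusted p = 0.000448). In the pentose phosphate pathway 1 of 7 genes was higher and 3 lower. G6pdx, its entry enzyme, was 2.17-fold higher (log2 1.11, SE 0.20, edgeR adjusted p = 3.93e-05) and Rpia, in its later part, lower (log2 -2.18, SE 0.32, edgeR adjusted p = 2.36e-06). In glycogen metabolism 2 of 10 were higher and 4 lower, with the branching enzyme gene Gbe1 higher at a log2 of 0.66 (SE 0.24, edgeR adjusted p = 0.0222). Of 3 gluconeogenesis genes tested, G6pc3 was higher (log2 0.69, SE 0.15, edgeR adjusted p = 0.000382) and Pck2 lower (log2 -0.61, SE 0.19, edgeR adjusted p = 0.00712).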
